A study of Mus musculus with 9 samples.

Results

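Lcn2 and 9 genes typical of the granulocyte lineage were followed across all 9 arrays of a study of mouse dendritic cells (DCs). The genes are Lcn2, Csf3r, S100a8, S100a9, Ltf, Ngp, Camp, Mpo, Elane and Prtn3, and every probe set that the array annotation gives to one of them was taken: 14 of the 12488 probe sets of one Affymetrix array design and 14 of the 12654 of another, 12 of them on both. They make up 10 of the 8251 genes with a symbol of their own on the first design. The genes were selected with measured values of these same arrays known, above all the Lcn2 difference between IAb-/- and B6 cells, so levels and differences of the 10 genes are a description and carry no p-value. RNA of day 10 DCs was compared between cells labelled CIITA-/-, named for the master activator of the MHC class II genes, cells labelled IAb-/-, named for a class II molecule of the B6 strain, and cells labelled B6. Each group has 3 arrays. Experiments 2 and 3 used the first design (2 arrays per group) and experiment 1 the second (1 array per group), and the designs were scaled separately, so levels are compared only within a design. Age, sex, culture conditions and the number of animals are not given in the sources used here, and neither are the origins of replicate arrays, which may be technical repeats of one culture.

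Neutrophils store antimicrobial proteins in granules that are filled in sequence as the cell matures. Promyelocytes make the primary granule proteins (Mpo, Elane, Prtn3), myelocytes the secondary granule proteins (Ltf, Camp, Ngp, Lcn2), and late stages the cytosolic pair S100a8 and S100a9, while the receptor for granulocyte colony-stimulating factor, Csf3r, is carried through most of the series. Lcn2 is also made outside this lineage: the lipocalin binds bacterial siderophores, which carry iron, and macrophages and epithelial cells induce it through NF-kappa-B and C/EBP factors.

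The 250 bases before the transcription start of Lcn2, Csf3r and Camp are shown because these are the genes with a signal above noise in experiments 2 and 3. They were taken from RefSeq (build GRCm38.p6), where all 10 genes matched, and lie at chr2:32387740-32387989 on the minus strand for Lcn2, chr4:126024409-126024658 on the plus strand for Csf3r and chr9:109849457-109849706 on the minus strand for Camp. Capitals mark matches on either strand to 3 motifs: an NF-kappa-B type (GGGNNNNNCC), a C/EBP type (TTNNGCAA) and a PU.1 type (GAGGAAGT).
Lcn2: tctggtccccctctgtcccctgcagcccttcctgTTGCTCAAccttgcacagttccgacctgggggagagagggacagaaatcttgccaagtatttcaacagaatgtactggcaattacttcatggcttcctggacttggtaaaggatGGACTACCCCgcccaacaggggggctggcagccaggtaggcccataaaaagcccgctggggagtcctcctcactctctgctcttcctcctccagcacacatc
Csf3r: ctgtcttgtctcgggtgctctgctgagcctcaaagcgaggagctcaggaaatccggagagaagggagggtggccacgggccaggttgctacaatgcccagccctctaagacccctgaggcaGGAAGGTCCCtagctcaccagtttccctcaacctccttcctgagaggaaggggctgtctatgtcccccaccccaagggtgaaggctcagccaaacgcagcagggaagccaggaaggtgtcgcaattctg
Camp: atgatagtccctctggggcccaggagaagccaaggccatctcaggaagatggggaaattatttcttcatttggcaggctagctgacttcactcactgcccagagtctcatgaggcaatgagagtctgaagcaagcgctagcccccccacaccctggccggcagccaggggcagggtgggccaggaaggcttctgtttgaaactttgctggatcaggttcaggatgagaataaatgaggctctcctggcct
The Lcn2 window held a C/EBP type match at 216 to 209 bases and an NF-kappa-B type match at 102 to 93 bases before the start. The Csf3r window held 1 NF-kappa-B type match, at 129 to 120 bases before the start, and in the Camp window these letters were not found. Over the 10 genes, the NF-kappa-B type occurred in 5 windows (Lcn2, Csf3r, Ltf, Prtn3 and Mpo) and in 45.8% of the windows of all 32851 promoters of the table, so this loose motif is common. The C/EBP type occurred in 4 (Lcn2, S100a9, Ngp and Ltf) against 9.56% of all promoters. The PU.1 type occurred in 4 as well (S100a8, Prtn3, Elane and Mpo) against 2.44% of all promoters, and no window held both it and a C/EBP type match. A match is a description of letters, not a binding site. Several of the genes are also neighbours in RefSeq: no protein-coding gene lies between Prtn3 and Elane or between S100a8 and S100a9, and 8 lie between Camp and Ngp.

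Levels are the deposited intensities in arbitrary units, which go below 0 for dim probe sets. The size that 95% of the negative values do not exceed was taken as a noise limit, 1701 in experiments 2 and 3 and 2203 in experiment 1. Against it, 3 of the 14 granulocyte probe sets exceeded noise on any array of experiments 2 and 3, namely 1 each of Lcn2, Csf3r and Camp, and 7 of the 10 genes stayed below it on all 6 arrays. Counted by probe set, 11 of the 14 stayed below noise on all 6, against 60.1% of all 12422 probe sets that are not controls. In experiment 1 the same 3 genes had a probe set above noise and the other 7 did not. There 11 of the 14 probe sets stayed below noise on all 3 arrays, against 66.6% of all 12588 that are not controls. Of 12 DC markers on the array of experiments 2 and 3, 11 exceeded the 1701 limit on any array and 10 on all 6. Itgax, Ccr7 and Ccl22 were far above it, Flt3 lay between 2228 and 2766, and Zbtb46 between 1167 and 2778, and another Zbtb46 probe set was below noise in experiment 1. In bulk RNA, fewer cells of a type and less RNA per cell cannot be told apart.

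**Figure D1:**
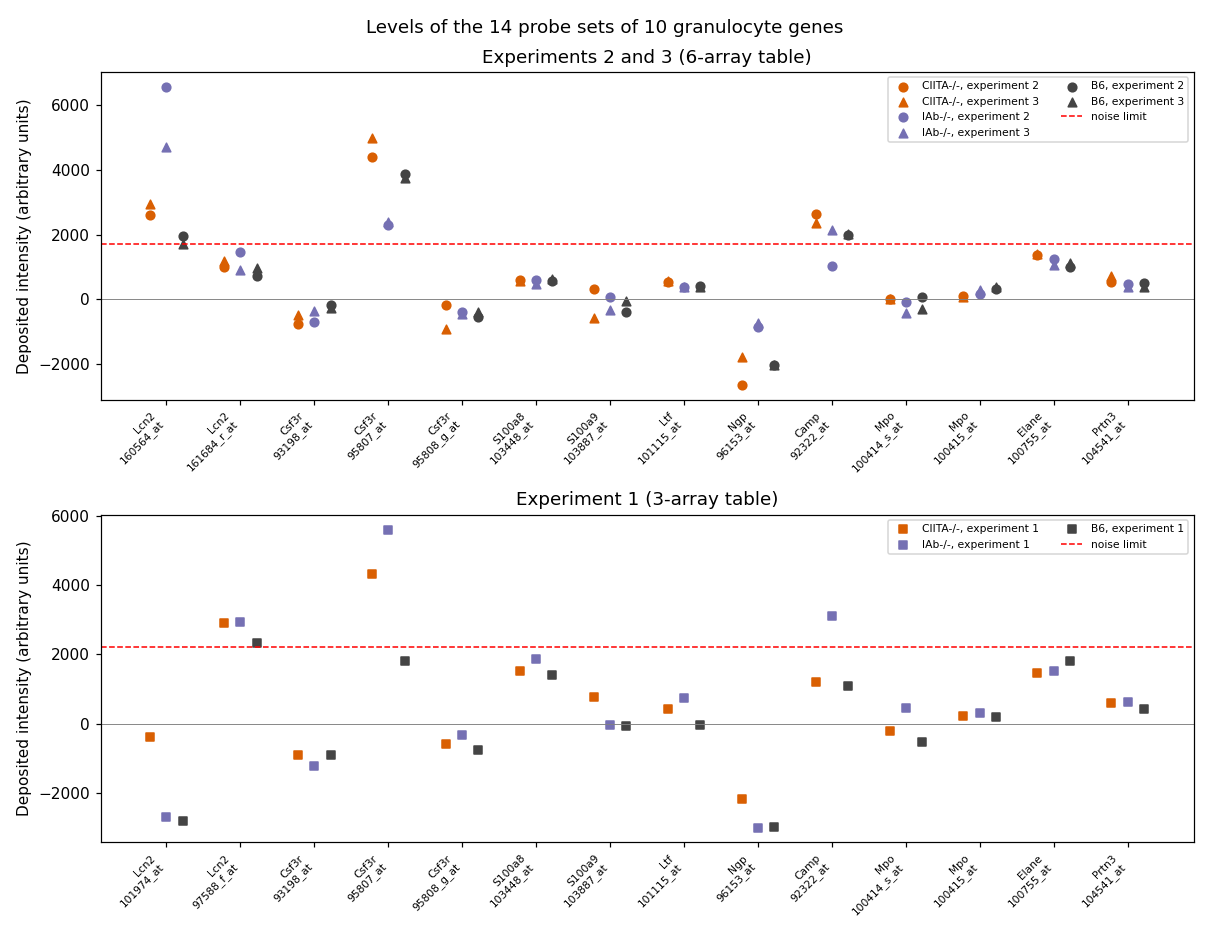
Deposited intensity (arbitrary units, vertical axis) of the 14 granulocyte probe sets (horizontal axis) on each array, above for experiments 2 and 3 and below for experiment 1, with 1 point per array and the noise limit dashed. In experiments 2 and 3 only Lcn2 160564_at, Csf3r 95807_at and Camp 92322_at rise above 1701.

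Lcn2 had its highest level in IAb-/- cells, a middle level in CIITA-/- cells and its lowest in B6 cells, in both experiments that measured it with this probe set. Lcn2 (160564_at) read 2595 and 2955 in CIITA-/- cells, 6575 and 4726 in IAb-/- cells, and 1970 and 1704 in B6 cells (experiments 2 and 3 in turn). No group overlapped another, and the B6 arrays lay just above the noise limit. The mean in IAb-/- cells was 5650 ± 1308, against 1837 ± 189 in B6 cells (SD, n = 2 each), a log2 difference of 1.61 (SE 0.22) or 3.04-fold, with 1.74 in experiment 2 and 1.47 in experiment 3. CIITA-/- cells averaged 2775 ± 255, 1.51-fold over B6 cells, a log2 difference of 0.60 (SE 0.22) that was 0.40 in experiment 2 and 0.79 in experiment 3. The difference between the mutants was a log2 value of -1.01 (SE 0.22) for CIITA-/- against IAb-/- cells. It was -1.34 in experiment 2 and -0.68 in experiment 3. The IAb-/- array of experiment 2 was the highest of all 6 for this gene.

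The spread of the IAb-/- arrays coincides with a difference in their spike-in readings, although the arrays share a trimmed mean. The spike-in control Cre read 140310 and 78903 on the IAb-/- arrays, against 106954 to 108986 on the CIITA-/- and 93949 to 96031 on the B6 arrays. With each array scaled on its 9 spike-in probe sets, Lcn2 read 2472 and 2855 in CIITA-/- cells, 4914 and 6279 in IAb-/- cells, and 2083 and 1788 in B6 cells. The order of the groups was the same on either scale, but the higher IAb-/- array was that of experiment 2 on the deposited scale and that of experiment 3 on the spike-in scale. The part of scaling in the array-to-array spread was not tested further.

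The other Lcn2 probe sets did not give the same contrast. Lcn2 161684_r_at stayed below noise, at 1010 and 1171 in CIITA-/- cells, 1460 and 900 in IAb-/- cells and 728 and 978 in B6 cells. IAb-/- and B6 overlapped, with differences of opposite sign in experiment 2 (1.00) and experiment 3 (-0.12). In experiment 1, Lcn2 was read by probe sets that the design of experiments 2 and 3 does not hold. Probe set 97588_f_at read 2918 in the CIITA-/-, 2923 in the IAb-/- and 2335 in the B6 array, a log2 difference of 0.32 for either mutant against B6, and its suffix marks probes that may match a family of transcripts. Probe set 101974_at, designed on the same source transcript as 160564_at, read -386, -2693 and -2811 in these same arrays, below 0 on all 3. With 1 array per group these differences have no replicate check, and the Lcn2 order seen in experiments 2 and 3 therefore has no like-for-like reading in experiment 1.

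Csf3r, the receptor through which granulocyte colony-stimulating factor drives neutrophil production, ran differently from Lcn2. Csf3r (95807_at) read 4392 and 4982 in CIITA-/- cells, 2291 and 2394 in IAb-/- cells, and 3879 and 3753 in B6 cells. It was lowest in the IAb-/- cells that were highest for Lcn2, with no overlap between groups. The log2 difference was 0.29 (SE 0.14) for CIITA-/- against B6, -0.70 (SE 0.14) for IAb-/- against B6, which is 1.63-fold lower, and 1.00 (SE 0.14) for CIITA-/- against IAb-/-. Experiments 2 and 3 were close for IAb-/- against B6 on the deposited scale, at -0.76 and -0.65. With spike-in scaling they were not: Csf3r read 1712 and 3180 in IAb-/- cells, against 4100 and 3940 in B6 cells. The log2 difference was then -0.78 (SE 0.45). In experiment 1, which holds the same probe set, Csf3r read 4320 in the CIITA-/-, 5603 in the IAb-/- and 1822 in the B6 array. The B6 array of experiment 1 lay below noise, so the CIITA-/- array was at least 1.96-fold and the IAb-/- array at least 2.54-fold higher. The sign thus turned for IAb-/- against B6, and for CIITA-/- against IAb-/- too (log2 difference -0.37), but not for CIITA-/- against B6. With all 9 arrays in one fit with the experiment as a replicate block, the 3 log2 differences were 0.61 for CIITA-/- against B6, 0.07 for IAb-/- against B6 and 0.54 for CIITA-/- against IAb-/-, and spike-in scaling gave 0.16 for the first. The remaining Csf3r probe sets, 93198_at and 95808_g_at, were below 0 on all 9 arrays, so the Csf3r differences rest on 1 probe set.

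Camp, which encodes the cathelicidin antimicrobial peptide of secondary granules, was dim and uneven. Camp (92322_at) read 2651 and 2360 in CIITA-/- cells, 1033 and 2152 in IAb-/- cells, and 1974 and 2030 in B6 cells. On this scale the CIITA-/- arrays were above the others, and the IAb-/- arrays lay on either side of B6, with that of experiment 2 below noise. With spike-in scaling Camp read 2525 and 2280 in CIITA-/- cells and 772 and 2859 in IAb-/- cells. The IAb-/- array of experiment 3 was then the highest. Log2 differences were 0.32 (SE 0.37) for CIITA-/- and -0.43 (SE 0.37) for IAb-/- against B6, both near their SE. For IAb-/- against B6 the value was -0.93 in experiment 2, where it rests on the IAb-/- array below noise, and 0.08 in experiment 3. In experiment 1 Camp read 1193 in the CIITA-/-, 3108 in the IAb-/- and 1076 in the B6 array. The CIITA-/- and B6 arrays of experiment 1 lay below noise, so the IAb-/- array was at least 1.41-fold higher than either. In experiment 1, then, the IAb-/- array was the highest of the 3 for both Csf3r and Camp, and in experiments 2 and 3 it was the lowest for Csf3r.

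**Figure D2:**
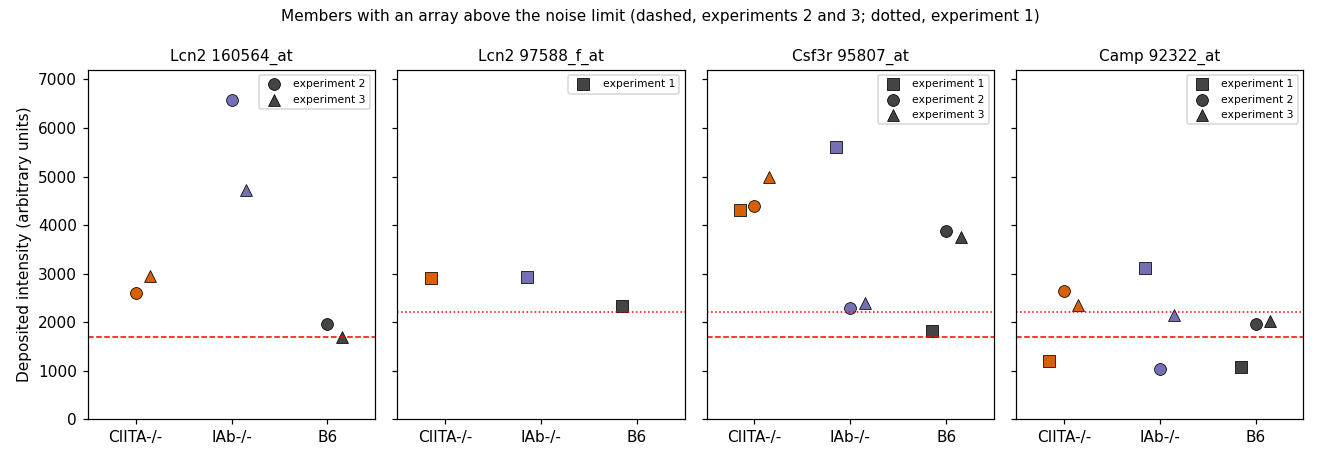
Intensity (arbitrary units, vertical axis) of the probe sets of Lcn2, Csf3r and Camp with an array above noise, by group (horizontal axis), 1 point per array with the marker giving the experiment. Experiment 1 was scaled separately, and its noise limit is dotted. The IAb-/- arrays are highest for Lcn2 160564_at, and for Csf3r they are lowest in experiments 2 and 3 but highest in experiment 1.

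The remaining secondary granule genes stayed below noise. Ltf, which encodes the iron-binding lactoferrin, read 526 and 558 in CIITA-/- cells, 384 and 381 in IAb-/- cells, and 398 and 381 in B6 cells. CIITA-/- arrays were above both other groups, at a log2 difference of 0.48 (SE 0.13) against B6, but every value was far below noise. Ngp, the neutrophilic granule protein, was below 0 on all 9 arrays, from -2649 to -722 in experiments 2 and 3. Its values so far under 0 hold no usable level.

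The primary granule genes were all below noise. Elane, neutrophil elastase, was the brightest of them, at 1359 and 1400 in CIITA-/- cells, 1249 and 1067 in IAb-/- cells, and 997 and 1113 in B6 cells, with CIITA-/- above B6 by 0.39 (SE 0.16) and IAb-/- overlapping B6. In experiment 1 that order was turned: Elane read 1479 in the CIITA-/-, 1521 in the IAb-/- and 1797 in the B6 array. Prtn3, the proteinase 3 gene beside Elane, read 522 and 722 in CIITA-/- cells, 480 and 374 in IAb-/- cells, and 506 and 382 in B6 cells. CIITA-/- lay above B6 by 0.48 (SE 0.27) for Prtn3, and IAb-/- and B6 overlapped. Mpo, myeloperoxidase, read 108 and 80 in CIITA-/- cells, 156 and 271 in IAb-/- cells, and 311 and 382 in B6 cells with probe set 100415_at. Its log2 difference of -1.48 (SE 0.31) for CIITA-/- against B6 is the widest of the 9 fitted probe sets in that comparison, yet it separates values that are a small part of the noise limit, and experiment 1 gave 0.25. The other Mpo probe set, 100414_s_at, ranged from -424 to 65 in experiments 2 and 3.

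S100a8 and S100a9 encode the subunits of calprotectin, among the most abundant proteins of neutrophil cytosol. S100a8 read 597 and 554 in CIITA-/- cells, 606 and 469 in IAb-/- cells, and 574 and 618 in B6 cells. All 3 groups overlapped, with log2 differences of -0.05 (SE 0.18) for CIITA-/- and -0.16 (SE 0.18) for IAb-/- against B6. S100a8 was also below noise in experiment 1, at 1510 in the CIITA-/-, 1862 in the IAb-/- and 1403 in the B6 array. S100a9 lay between -580 and 307 in experiments 2 and 3, with 4 of 6 arrays below 0. It passed no filter and was not fitted. Neither subunit gene was above noise in any group.

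**Figure D3:**
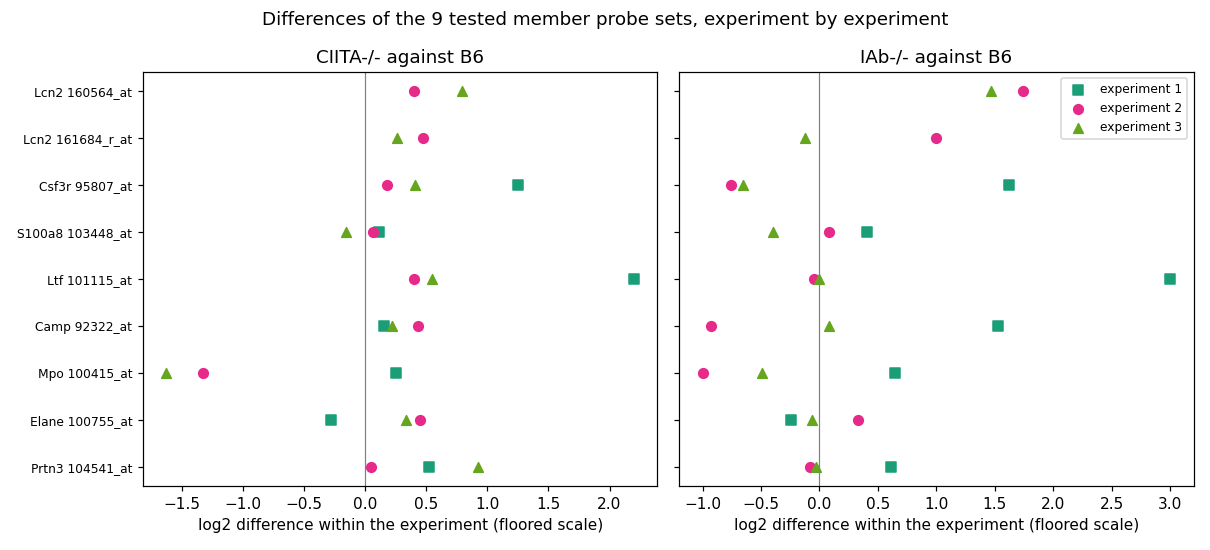
Log2 difference within each experiment (horizontal axis, on the floored scale) for the 9 granulocyte probe sets that were fitted (rows), CIITA-/- against B6 at left and IAb-/- against B6 at right, with 1 marker per experiment. Lcn2 160564_at lies at 1.74 and 1.47 for IAb-/-, while Csf3r and Camp have experiment 1 at 1.62 and 1.53, both against a B6 array below noise, and experiment 2 below 0. The Ltf values of experiment 1, 2.20 and 3.00, compare levels below noise with a B6 array set to the floor.

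The fit was limma on log2 intensities floored at 123.5, over all 3 groups of experiments 2 and 3, with calls at a Benjamini-Hochberg adjusted p under 0.05. Of the 14 granulocyte probe sets 9 passed the filter on low values and 5 did not. Of these 9, 0 were called for CIITA-/- against B6, where 0.0966% of all 9312 probe sets were, 0 for IAb-/- against B6, where 0.0107% were, and 0 for CIITA-/- against IAb-/-, where 0.0215% were. At an unadjusted p under 0.05 by limma the numbers were 3, 2 and 3 of 9, against 5.86%, 4.31% and 4.54% of all probe sets tested. Since the genes were selected on these comparisons, nothing is read from those counts. By value, 7 of 9 were higher in CIITA-/- than in B6 cells and 3 of 9 in IAb-/- than in B6 cells, with median log2 differences of 0.37 and -0.05 against 0.01 over all probe sets tested in either comparison. In each comparison 6 of the 9 lay below noise in both groups.

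Over the 6 arrays Lcn2 did not run with the other members above noise. On the log2 scale the correlation of Lcn2 with Csf3r was -0.75 and with Camp -0.62, and that of Csf3r with Camp was 0.70 (n = 6 arrays of 3 groups, a description). The genes most like Lcn2 160564_at, out of 3949 probe sets with 1 symbol above noise on at least 3 arrays, were Pim1 (r = 0.989), Derl1 (0.964), Isca1 (0.947), Grina (0.944) and Frrs1 (0.941). Pim1, a serine/threonine kinase gene, read 16950 and 18548 in CIITA-/- cells, 24271 and 22218 in IAb-/- cells, and 16639 and 15476 in B6 cells, a log2 difference of 0.53 for IAb-/- against B6 that was 0.50 in experiment 1. The most opposite were Clic4 (-0.985), Mrps36 (-0.974), Pdcd6 (-0.962), H2-M3 (-0.959) and Ints5 (-0.957). H2-M3, a nonclassical MHC class I gene, read 2314 and 2160 in CIITA-/- cells, 1447 and 1492 in IAb-/- cells, and 3577 and 3267 in B6 cells. The IAb-/- arrays lay below noise for H2-M3, so H2-M3 was at least 2.01-fold lower in IAb-/- than in B6 cells. With 6 arrays and so many probe sets, likenesses of this size are a listing. Besides Lcn2, only Csf3r and Camp of the set were above noise on enough arrays to be ranked. The absence of the other members from these 10 genes was thus fixed by the filter.

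**Figure D4:**
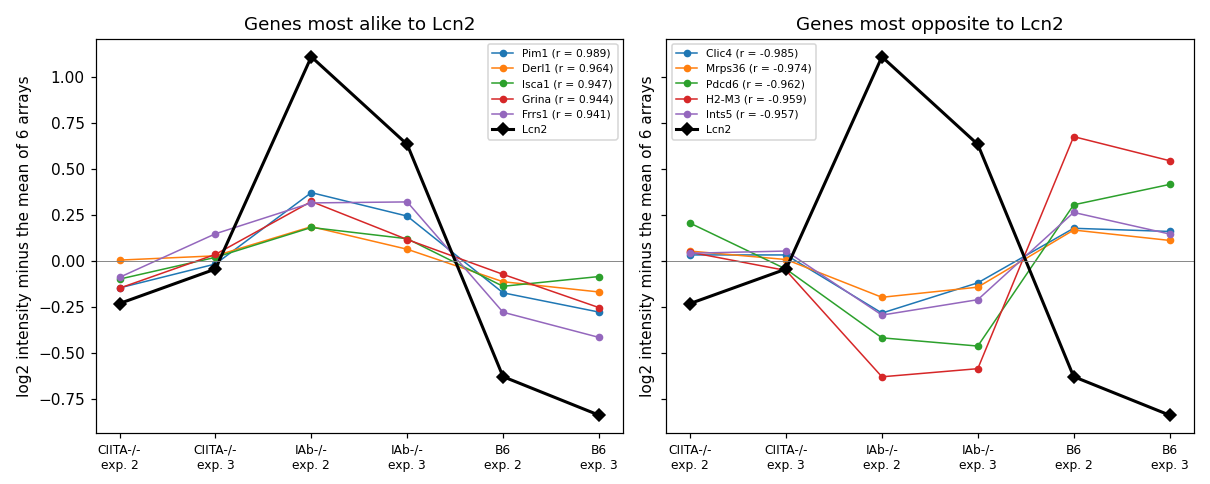
Log2 intensity minus the mean of the 6 arrays (vertical axis) on each array of experiments 2 and 3 (horizontal axis) for Lcn2 160564_at in black and the 5 genes most alike (left) and most opposite (right). Lines join the arrays of one gene and stand for no order. Lcn2 spans a wider range than any of the genes most like it.

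Genes of the wider granulocyte programme, listed with earlier results of these arrays known, were read from the same fit, 1 probe set per gene, and none of them was called in any of the 3 comparisons. Primary granule and promyelocyte genes had 6 of 11 on the array, and only Lyz2, the lysozyme that monocytes and macrophages make as well, was above noise. Lyz2 read 17725 and 22732 in CIITA-/- cells, 27047 and 18616 in IAb-/- cells, and 15191 and 14154 in B6 cells, 0.61 (SE 0.25) higher on the log2 scale in IAb-/- than in B6 cells at an adjusted p of 1 by limma, and -0.02 in experiment 1. Of 12 secondary and tertiary granule genes fitted, 7 were higher and 4 lower by value in IAb-/- than in B6 cells. The median log2 difference was 0.18. Itgam, the CD11b integrin chain that DCs and monocytes also carry, read 2124 and 3447 in CIITA-/- cells, 3508 and 2680 in IAb-/- cells, and 1341 and 1406 in B6 cells. Since the B6 arrays lay below noise, the mean in CIITA-/- cells was at least 1.64-fold and that in IAb-/- cells at least 1.82-fold higher, at adjusted p of 0.78 and 0.85, and experiment 1 gave log2 differences of 0.17 and -0.48. Cybb, the gp91phox subunit of the phagocyte oxidase, differed by 0.79 (SE 0.21) for IAb-/- against B6 at an adjusted p of 0.87 by limma, and by -0.03 in experiment 1. Its partner Cyba differed by 0.22 and Chil3, a chitinase-like protein, by 0.18. Mmp8, neutrophil collagenase, was below 0 on all 6 arrays.

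Of 13 genes of the mature neutrophil surface and cytosol on the array, 8 exceeded noise. Ly6g, the antigen by which mouse neutrophils are commonly gated, read 1899 and 681 in CIITA-/- cells, 1888 and 1742 in IAb-/- cells, and 2414 and 1371 in B6 cells, around the noise limit. Cxcr2, a chemokine receptor of neutrophils, read 5180 and 3311 in CIITA-/- cells, 4114 and 2462 in IAb-/- cells, and 4212 and 3321 in B6 cells. All 3 groups overlapped for Cxcr2, which was not highest in IAb-/- cells in either experiment. Ly6g was highest in the B6 array of experiment 2 and in the IAb-/- array of experiment 3. Its means were 1815 in IAb-/- and 1892 in B6 cells. The leukotriene receptor gene Ltb4r1 and the oxidase subunit gene Ncf1 had log2 differences of 0.55 (SE 0.49) and 0.05 (SE 0.20) for IAb-/- against B6. The median over the 12 fitted genes of this list was 0.22 for CIITA-/- and 0.11 for IAb-/- against B6.

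Among the transcription factors of the lineage, 6 of 7 on the array were above noise. Cebpb, a C/EBP factor that macrophages and DCs also use, read 8237 and 10063 in CIITA-/- cells, 11905 and 11949 in IAb-/- cells, and 8035 and 8609 in B6 cells. IAb-/- cells did not overlap B6, with a log2 difference of 0.52 (SE 0.16) at an adjusted p of 1 by limma and 0.05 in experiment 1. Cebpa and Spi1, the gene of PU.1, differed by 0.03 (SE 0.15) and 0.02 (SE 0.14) in the same comparison, and Socs3, a feedback inhibitor of cytokine receptors, by 0.34 (SE 0.60). Among receptors of related growth factors, Csf2rb, the common beta chain, differed by 0.40 (SE 0.22), its paralog Csf2rb2 by 0.25, Il3ra by 0.34 and Csf2ra by 0.18. These 4 were positive and Csf3r negative in experiments 2 and 3, but experiment 1 gave -0.24 for Csf2ra, -0.46 for Il3ra (below noise) and 0.11 for Csf2rb, with Csf3r higher in the IAb-/- array.

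Of 9 ligand genes on the array 5 exceeded noise on any array and 3 on all 6. Csf3, which encodes the ligand of Csf3r, read 1696 and 1701 in CIITA-/- cells, 1773 and 1416 in IAb-/- cells, and 1273 and 2897 in B6 cells, around noise and overlapping. Cxcl1, a neutrophil chemoattractant, read 666 and 1451 in CIITA-/- cells, 1937 and 2333 in IAb-/- cells, and 1454 and 1387 in B6 cells. CIITA-/- cells lay below noise for Cxcl1, so the IAb-/- mean was at least 1.26-fold higher, with a log2 difference of -1.11 (SE 0.40) for CIITA-/- against IAb-/- at an adjusted p of 1 by limma. Experiment 1 gave -1.39, below noise on all 3 arrays. All 8 fitted genes of this list were lower by value in CIITA-/- than in B6 cells, with a median log2 difference of -0.24, and none was called. Of these, 4 lay below noise in both groups, 4473 of all 9312 probe sets tested were lower, and the median of the list in experiment 1 was 0.06. Il6 and Csf1 differed by 0.27 and 0.24 for IAb-/- against B6.

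Genes known to be induced together with Lcn2 by NF-kappa-B and its cofactor I-kappa-B-zeta had 3 of 6 on the array above noise. Il1rn, the interleukin-1 receptor antagonist, differed by 0.43 (SE 0.23) for IAb-/- against B6, Tnfaip3 by 0.09 (SE 0.25) and Sod2 by -0.05 (SE 0.18). The median over the 5 fitted was 0.09. In iron handling, Slc11a1, a phagosomal metal transporter, lay below noise in B6 cells. Its mean was at least 1.25-fold higher in CIITA-/- and at least 1.20-fold higher in IAb-/- cells, at adjusted p of 0.86 and 1 by limma. The IAb-/- array of experiment 2 read 1651, itself below noise, so no bound holds for that array. Experiment 1 gave log2 differences of 0.01 and -0.11 for Slc11a1. Hmox1, Slc11a2 and the transferrin receptor gene Tfrc differed by 0.36, 0.13 and -0.33 for IAb-/- against B6.

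**Figure D5:**
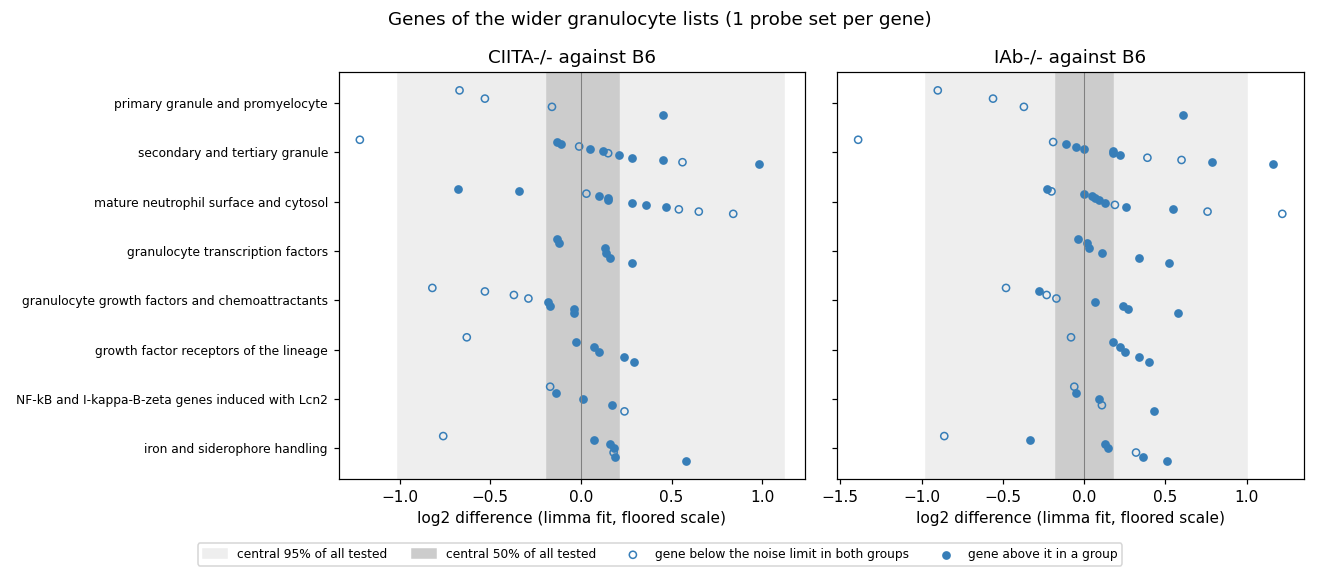
Log2 difference by limma (horizontal axis, floored scale) of each fitted gene of the wider lists (rows), CIITA-/- against B6 at left and IAb-/- against B6 at right. Bands give the central part of all 9312 probe sets tested. Open points are genes below noise in both groups, and 0 of the genes were called.

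Summed over 13 neutrophil markers on the array, of which Lcn2, Csf3r, Camp, Ly6g and Cxcr2 were above noise, the level was 20137 and 17604 in CIITA-/- cells, 18841 and 16038 in IAb-/- cells, and 17236 and 15053 in B6 cells. The CIITA-/- arrays lay above B6 and the IAb-/- arrays overlapped both, while S100a9 lay below 0 on 4 and Ngp and Mmp8 on all 6 arrays. This order includes Lcn2, on which the set was selected, at 6575 and 4726 in IAb-/- and 1970 and 1704 in B6 cells. It is therefore no separate reading of neutrophil content. Taking the printed Lcn2 values off these sums leaves the IAb-/- arrays lowest, without overlap, and the CIITA-/- and B6 arrays overlapping. The order above thus rests on Lcn2. In experiment 1 the sum over these genes was 22599 in the CIITA-/-, 23716 in the IAb-/- and 17033 in the B6 array. There Lcn2 entered through 97588_f_at, which the design of experiments 2 and 3 does not hold, so the sums are not like for like. The sum over 4 monocyte markers was 29081 and 32573 in CIITA-/- cells, 39767 and 28161 in IAb-/- cells, and 25476 and 22659 in B6 cells, with B6 lowest and without overlap. In these arrays Cd14, Csf1r and Lyz2 were above noise, and Lyz2 was the largest part of the sum on each. In experiment 1 that sum was 78421 in the CIITA-/-, 76388 in the IAb-/- and 73278 in the B6 array. The sum over 9 macrophage markers, of which only Cd68 was above noise, was 8729 and 9472 in CIITA-/- cells, 9599 and 8994 in IAb-/- cells, and 9864 and 7564 in B6 cells. The sum over 12 DC markers was 515300 and 500421 in CIITA-/- cells, 602505 and 442794 in IAb-/- cells, and 487808 and 472421 in B6 cells. None of the eosinophil or T cell markers was above noise in experiments 2 and 3, and 1 of 9 mast cell and basophil markers (Mcpt1), 4 of 5 B cell markers and 1 of 3 erythroid markers (Klf1) were. The monocyte sum was thus, like Lcn2, lower in B6 than in either mutant in experiments 2 and 3. This was not particular to monocyte markers. The mast cell and basophil sum was 10508 and 10866 in CIITA-/- cells, 11847 and 10377 in IAb-/- cells, and 9946 and 8314 in B6 cells. The part of either sum in the Lcn2 difference was not tested.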

How the data were processed

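Transcript levels of day 10 DCs were read from 2 value tables of Affymetrix arrays. The deposited values are linear intensity, and no source used here names the algorithm. Per table the values share a trimmed mean, and 21% to 26.4% of an array's values lie below 0. A CIITA-/- array whose title has no experiment number was given 2, the number left in its group. The number of arrays limits the precision.

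In the 6-array table, values under the 30th percentile (123.5) were raised to it before log2, and 9312 of 12422 probe sets that are not controls passed the filter (over the floor on 2 or more arrays). They were fitted with lmFit and eBayes of limma 3.58.1 (R 4.3.3), the 3 groups in one model with 3 residual degrees of freedom and Benjamini-Hochberg adjustment. The p-values cover only the spread between these arrays, and the comparisons share arrays. Folds on the floored scale understate differences of dim probe sets. Where one group lay below noise, the fold is a bound, the brighter group's mean over the noise limit. Experiment 1 was not in the fit and was floored at 93.2. The fit was tested on simulated data whose spread was smaller than that of these arrays, so that test does not show how the fit performs on them. By the platform annotation, 10833 of 12488 probe sets have 1 symbol, 396 several and 1193 none.

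The 10 genes, wider lists and markers were chosen with earlier results of these data known. Per list, the text names up to 4 genes above noise in a group, by the widest log2 difference in any comparison, and 5 genes at each end of the correlation with Lcn2. Alternatives varied the floor, the filter, the scaling, the experiment as a replicate block and the arrays left out.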

Additional observations from a re-analysis of the deposited data

How the results depend on the processing

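The number of probe sets called changed with nearly every choice. For CIITA-/- against B6 it was 9, and 18 with the floor at the 25th percentile, 3 with the floor at the noise limit, 14 with no filter, 4 with all 9 arrays and a replicate block, and 0 to 1 when 1 array was left out. For IAb-/- against B6 it was 1, and 4, 0, 5 and 0 under the same choices, 3 with quantile normalization, 0 with spike-in scaling and 0 when any array was left out. For CIITA-/- against IAb-/- it was 2, and 6 with the 25th percentile floor, 4 with the noise limit floor, 7 with no filter, 7 with spike-in scaling and 0 to 1 when 1 array was left out. The experiment number as a replicate block in the 6-array fit gave 0 calls in each of the 3 comparisons, against 606, 491 and 492 probe sets at an unadjusted p under 0.05 by limma. The numbers are not known to pair the samples: with 2 arrays per group, deviations of same-numbered arrays correlated at 0.0478 to 0.215. The causes of these changes were not tested. The Lcn2 difference for IAb-/- against B6 was 1.61 and lay between 1.37 (without IAb-/- replicate 2) and 1.84 (without IAb-/- replicate 3). For CIITA-/- against IAb-/- it was -1.01 and lay between -1.25 and -0.77 when an array was left out. For CIITA-/- against B6 it stayed between 0.46 and 0.70 under all 12 alternatives. Csf3r for IAb-/- against B6 was -0.70 but 0.07 with all 9 arrays. Csf3r for CIITA-/- against IAb-/- was 1.00 and 0.54 with all 9 arrays; for CIITA-/- against B6 it was 0.29, and 0.16 with spike-in scaling and 0.61 with all 9 arrays. Camp for IAb-/- against B6 was -0.43, and 0.10 without IAb-/- replicate 2, -0.95 without IAb-/- replicate 3 and 0.23 with all 9 arrays. Leaving 1 array in a group assumes that it varies like the others. The planned floor at the 15th percentile was not run because that percentile is below 0 (-124); the 25th percentile was chosen in its place after seeing the data. Lcn2 160564_at is on one design only and has no value over 9 arrays. Signal over background limits S100a8, S100a9, Ltf, Ngp, Mpo, Elane and Prtn3, whose differences cannot be read at this level.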
